A study of Drosophila melanogaster with 8 samples.

Results

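Stable lines of Drosophila S2 cells carrying mutant Beaf were compared with lines carrying wild-type Beaf by RNA-seq. These lines account for 6 of the 8 samples of the series, 3 libraries labelled wild type Beaf and 3 labelled mutant Beaf, and were chosen by those genotype labels. S2 is a line derived from late Drosophila embryos with features of macrophage-like blood cells (hemocytes). All 6 samples came from S2 cells grown in Schneider's medium with 10% serum, and the lines were obtained by calcium-mediated transfection of pUWG vectors with a neomycin resistance gene, followed by about 10 days of G418 selection and picking of resistant colonies. In pUWG a ubiquitin promoter drives a coding region joined to GFP, so a transfected gene is expressed from a promoter that is not its own. The labels name the mutant allele only as mutant Beaf. They leave unsaid how many colonies each line came from, whether the wild-type line received a vector with wild-type Beaf or none, and whether the libraries of a line were grown apart. The p-values are therefore only as general as the spread among these 6 libraries, part of which may be technical, and the genotype cannot be told apart from any other difference between the lines.

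BEAF-32 (FBgn0015602), the protein encoded by Beaf, is an insulator protein. Insulator proteins bind between genes and limit the contact of regulatory elements and chromatin domains with their neighbours, often together with cofactors such as Cp190. BEAF-32 binds mostly close to transcription start sites, many of them between genes that start near each other and are transcribed in opposite directions, and many of its neighbours are housekeeping and cell-cycle genes. The comparison asked how the transcriptome of cells with the mutant differed from that of cells with the wild-type protein.

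The libraries are numbered by the deposited table that held them, since 3 tables each held 1 wild-type and 1 mutant column. Levels are given as CPM, the value of a gene after the values of all genes in its library are scaled to a sum of 1000000. Between 1528041 and 1885689 reads per library were counted in genes, which was 3.82% to 5.02% of all reads, while 85.6% to 94.0% were assigned to no feature. The latter need not lie outside genes, since the annotation and strand setting of the counts are not given. A gene with no count in a library could still have had up to 1.59 to 1.96 CPM there, depending on the library, which covers counting error only. The libraries numbered 1 stood apart within their genotypes. Across 6564 genes, wild-type libraries 2 and 3 had a Spearman correlation of 0.981 and mutant libraries 2 and 3 also 0.981. Wild-type library 1 correlated with the other wild-type libraries at 0.967 and 0.966, and mutant library 1 with the other mutant libraries at 0.833 and 0.830. Mutant library 1 also had reads in 1183 genes that were at 0 in the 5 other libraries, where each other library had 23 to 55 such genes, and 10.4% of its reads were not aligned. Results are therefore given with all 6 libraries and with libraries 2 and 3 of each genotype alone, called libraries 2 and 3 here, and the pair numbered 1 also serves as a separate comparison.

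BEAF-32 RNA, which the native and any transfected gene both supply, was at 25.0, 469 and 676 CPM in the wild-type and at 1228, 1613 and 1929 CPM in the mutant libraries, in the order of their numbers. All mutant libraries lay above all wild-type libraries, and wild-type library 1 was far below the other wild-type libraries. The means were 390 ± 332 CPM in wild type and 1590 ± 351 CPM in the mutant (SD, n = 3 each). With all 6 libraries the log2 difference was 3.01 with an SE of 1.11 (limma adjusted p = 0.231), and leaving out single libraries moved it between 1.54 and 3.84. In libraries 2 and 3 alone BEAF-32 rose 3.12-fold, a log2 difference of 1.64 with an SE of 0.11 (limma adjusted p = 2.25e-09). An exact two-sided permutation test of 3 libraries against 3 cannot go below p = 0.1, so no single gene can reach 0.05 by that test here.

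Cp190, a cofactor shared by several insulator complexes, was at 186, 192 and 205 CPM in wild-type libraries 1 to 3 and at 795, 193 and 188 CPM in mutant libraries 1 to 3. Only mutant library 1 was high, and the log2 difference of 0.72 with all 6 libraries became −0.052 without it. Dref encodes a transcription factor whose binding sequence overlaps that of BEAF-32, and it was at 97.5, 96.8 and 101 CPM in wild type and at 26.0, 63.1 and 87.4 CPM in the mutant. All mutant libraries were lower than all wild-type libraries, although they spread far more widely, and the fall in libraries 2 and 3 was a log2 difference of −0.41 (limma adjusted p = 0.0444). CTCF, another DNA-binding insulator protein gene, had overlapping groups, from 29.6 to 42.0 CPM in wild type and from 24.8 to 30.8 CPM in the mutant. Of 15 tested members of the insulator list, 2 were higher and 1 was lower in every mutant library, where 17.5% and 18.4% of all tested genes were. The higher ones were BEAF-32 itself and dwg, a zinc finger insulator gene named here after its values were seen, at 6.60 to 8.77 CPM in wild type and 9.07 to 10.5 CPM in the mutant.

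**Figure D1:**
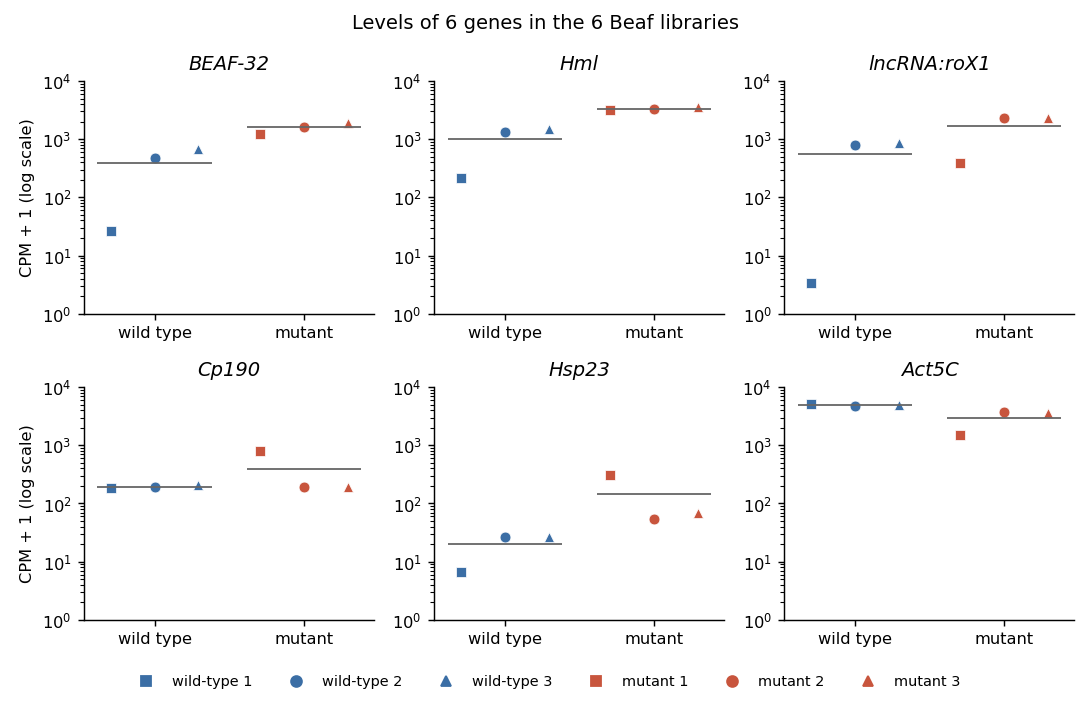
Levels of 6 genes in each of the 6 libraries, in CPM with 1 added on a log axis, with a grey line at the mean of each genotype and the marker shape giving the deposited table. BEAF-32, Hml and Hsp23 were higher in every mutant library and Act5C was lower, whereas roX1 overlapped between genotypes and Cp190 was high in mutant library 1 alone.

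With all 6 libraries limma called 0 of 6564 genes (0.0%) at a Benjamini-Hochberg adjusted p of 0.05, with 0.214 as its smallest adjusted p, and 1274 genes had an unadjusted p under 0.05. EdgeR's quasi-likelihood test and limma-voom also called 0 genes. DESeq2 called 220, all but 1 of them higher in the mutant. Leaving out mutant library 1 gave 471 limma calls, 286 of them higher. Although no gene passed limma's test, 1150 genes (17.5% of those tested) were higher in every mutant than in every wild-type library, and 1211 (18.4%) were lower in every mutant library. Of these, 67 (1.02%) had their lowest mutant value at least 2-fold above their highest wild-type value, counting 1 CPM added to each, and 1 (0.0152%) had the opposite gap of 2-fold. That gene, Mco4, a multicopper oxidase gene named here after its values were seen, was scarce, at 9.42 CPM in wild-type library 1. The clear separations were thus mostly of genes with more RNA in the mutant.

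The genes with the widest gaps between the genotypes were followed individually. They were picked for these gaps, so their values are a description. Among the 12 with the widest gap upward, Itgbn, which encodes an integrin beta subunit used by hemocytes to engulf dying cells, was at 4.24, 3.70 and 1.88 CPM in wild-type libraries 1 to 3 and at 25.4, 17.5 and 15.5 CPM in mutant libraries 1 to 3. The genotypes were separated by a factor of 3.16 at their nearest values, and the 3 mutant libraries lay close together. The pro-apoptotic gene hid was at 1.88, 13.2 and 15.0 CPM in wild type and at 41.5, 47.7 and 42.7 CPM in the mutant. Here wild-type library 1 was the low value, and the mutant libraries, number 1 included, differed little.

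Transcription factor genes in this group were dysf, which acts in tracheal cells, and svp, an orphan nuclear receptor. dysf was at 2.36, 8.47 and 6.89 CPM in wild type and at 42.1, 29.2 and 26.6 CPM in the mutant, and svp at 2.83, 11.1 and 10.7 CPM and at 79.2, 28.6 and 34.3 CPM. In both genes mutant library 1 was the highest and wild-type library 1 the lowest of the 6. The same order held for sdt, a scaffold of epithelial polarity complexes, at 5.65, 22.2 and 21.3 CPM in wild type and 126, 57.3 and 57.6 CPM in the mutant. It also held for Mf, a protein of muscle thick filaments, at 0.942, 22.2 and 21.9 CPM and at 92.2, 58.3 and 62.2 CPM. Ih, which encodes a cation channel opened by hyperpolarization, and Alp6, an alkaline phosphatase gene, had 4.24 to 8.15 and 0 to 11.6 CPM in wild type and 22.0 to 48.9 and 32.9 to 78.0 CPM in the mutant. The remaining genes of this group were CG17350, CG42402, CG4928 and FBgn0086911, which has no symbol in the annotation used here. CG17350, which had the widest gap, was at 0, 0.529 and 0 CPM in wild type and at 51.4, 5.83 and 5.83 CPM in the mutant. It passed the mean of 10 CPM only through mutant library 1, and at the low levels of the other libraries the gap of 4.47-fold depends on the CPM added.

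Downward gaps were narrower, from 1.45-fold to 1.75-fold for the 12 named genes, against 2.45-fold to 4.47-fold upward. Gart, which encodes an enzyme of several steps of purine synthesis, was at 154, 147 and 143 CPM in wild-type libraries 1 to 3 and at 54.5, 97.0 and 86.8 CPM in mutant libraries 1 to 3. ND-75, a core subunit of respiratory complex I, was at 102, 96.3 and 99.6 CPM in wild type and at 55.7, 65.8 and 66.1 CPM in the mutant. Wild-type values of both genes lay within a narrow band, wild-type library 1 included, and mutant library 1 was the lowest. mad2, a spindle checkpoint gene, had 19.6 to 27.6 CPM in wild type and 3.09, 11.7 and 12.3 CPM in the mutant. Ppox, an enzyme of haem synthesis, had 23.8 to 29.6 CPM in wild type and 14.2 to 15.4 CPM in the mutant, and Hibch, an enzyme of valine breakdown, had 27.5 to 35.1 CPM and 15.9 to 17.5 CPM. In Ppox and Hibch all 3 mutant libraries lay close together, so that mutant library 1 did not stand apart there. It did stand apart in blanks, which encodes a protein that binds double-stranded RNA, at 278, 234 and 257 CPM in wild type and 3.71, 161 and 156 CPM in the mutant, and in fz4, a Wnt receptor gene of the frizzled family, at 29.6 to 32.6 CPM and 3.09, 19.1 and 20.1 CPM. The others were CG42450, the histone gene His2A:CG33838, CG3168, nesd, a cytokinesis gene, and CG12061.

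**Figure D2:**
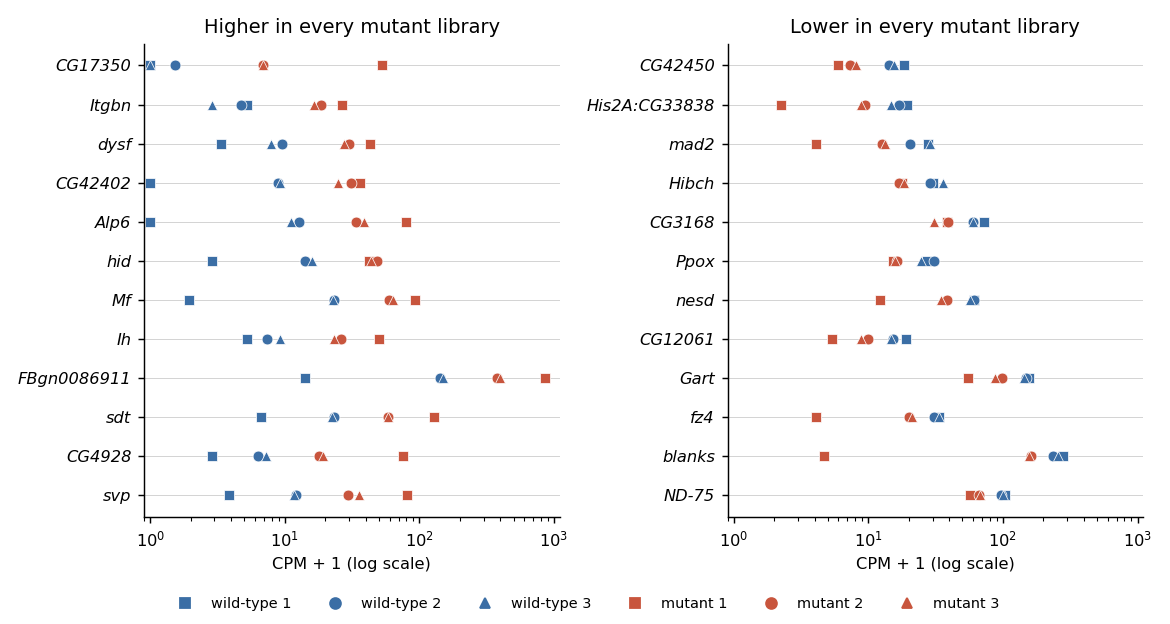
Levels of the 12 genes with the widest upward and the 12 with the widest downward gap between genotypes, in CPM with 1 added on a log axis, each point a library. On the left wild-type library 1 (blue squares) is often below the other wild-type libraries, and on the right mutant library 1 (red squares) is often below the other mutant libraries.

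The 4 libraries numbered 2 and 3 lay close together within each genotype, and limma called 977 of 6619 genes there (14.8%), of which 618 rose (9.34%) and 359 fell (5.42%). DESeq2 called 180 genes in the same 4 libraries, 166 of them higher. The rises called by limma were larger than the falls, with a median log2 difference of 0.69 against −0.38, and 206 rises but only 11 falls were at least 2-fold. Since the libraries were kept because they lay close together, that choice narrowed the spread the p-values measure. The libraries numbered 1 took no part in this test, although with 1 library a side they give no p-value. Of the 618 genes that rose, 568 (91.9%) were higher in mutant library 1 than in wild-type library 1, where 43.2% of all tested genes were, and 412 (66.7%) were higher by at least 2-fold, where 16.3% of all genes were. Of the 359 genes that fell, 335 (93.3%) were lower in mutant library 1, where 56.8% of all genes were, and 237 (66.0%) were lower by at least 2-fold, where 21.3% of all genes were. The median log2 difference between the libraries numbered 1 was 1.52 for the genes that rose, −1.30 for those that fell and −0.18 for all tested genes.

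The differences between the libraries numbered 1 were wider than those in libraries 2 and 3 in the genes called there. Across the 6619 genes the 2 sets of log2 differences had a Pearson correlation of 0.66 and a Spearman correlation of 0.58, given as a description, since genes of a library share its depth and preparation. With all 6 libraries together, 497 of the 618 genes that rose were higher in every mutant library and 327 of the 359 that fell were lower in every mutant library. The count of genes that rose and were also higher in the other comparison fell whichever library was left out, since fewer genes were then called. Without mutant library 3 it was 374 of 408 genes called higher, and without mutant library 2 it was 404 of 453. Without wild-type library 2 it was 502 of 557, and without wild-type library 3 it was 538 of 593.

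**Figure D3:**
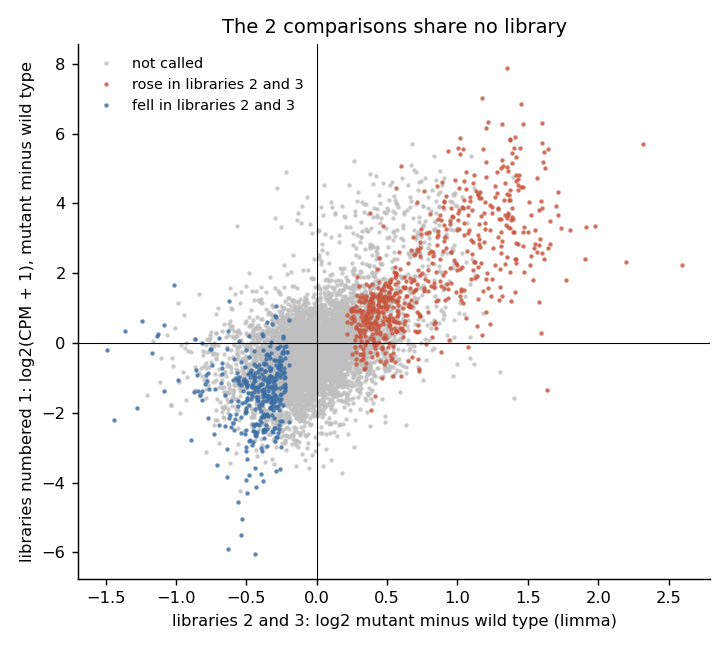
Log2 difference of mutant minus wild type for 6619 genes, with the limma estimate from libraries 2 and 3 on the horizontal axis and the difference of log2(CPM + 1) between the libraries numbered 1 on the vertical axis. Of the genes called in libraries 2 and 3, 568 of 618 that rose lie above 0 and 335 of 359 that fell lie below 0 on the vertical axis, where the spread is wider.

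A set of 117 genes had a mean of at least 20 CPM in mutant libraries 2 and 3 and at least 4 times the level of wild-type library 1, with 1 CPM added. Wild-type libraries 2 and 3 and mutant library 1 took no part in that choice, and their places were then read on a linear CPM scale on which wild-type library 1 is 0 and the mean of mutant libraries 2 and 3 is 1. Wild-type library 2 had a median place of 0.351, with quartiles of 0.301 and 0.412, and wild-type library 3 had a median of 0.397, with quartiles of 0.348 and 0.442. Both lay between 0 and 1 in all 117 genes, with full ranges of 0.110 to 0.679 for library 2 and 0.157 to 0.771 for library 3. For example, the place in wild-type libraries 2 and 3 was 0.349 and 0.390 for Hml, a clotting protein gene of hemocytes, 0.384 and 0.404 for the collagen IV gene Col4a1, and 0.351 and 0.378 for roX1, a noncoding RNA of dosage compensation. It was 0.404 and 0.365 for Sox100B, a transcription factor gene, and 0.254 and 0.373 for BEAF-32 itself. Across the 117 genes the mean of mutant libraries 2 and 3 was a median of 2.35 times that of wild-type libraries 2 and 3, with quartiles of 2.03 and 2.66. Mutant libraries 2 and 3 served to choose these genes, so this ratio only describes them.

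Mutant library 1 did not share these places. Its median was 1.22, with quartiles of 0.701 and 2.18 and a range of 0.106 to 7.39, and it lay above 1 in 64 of the 117 genes. roX1, for instance, was at 2.36, 804 and 867 CPM in wild-type libraries 1 to 3 and at 385, 2274 and 2298 CPM in mutant libraries 1 to 3. Sox100B was at 2.36, 134 and 122 CPM in wild type and at 787, 324 and 334 CPM in the mutant. roX1 thus overlapped between the genotypes while Sox100B did not, although both had nearly the same places in wild-type libraries 2 and 3. Glt, a protein of the matrix made by hemocytes, behaved like roX1, at 8.01, 640 and 691 CPM in wild type and 512, 1796 and 1659 CPM in the mutant. Sur, which encodes an ABC transporter of the sulfonylurea receptor family, behaved like Sox100B, at 0, 37.6 and 42.0 CPM and at 129, 92.3 and 90.0 CPM. What put the libraries at these places was not tested.

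The genes that set mutant library 1 most apart from mutant libraries 2 and 3 went in both directions. Besides blanks, CG10232 and Gba1a, a glucocerebrosidase gene, were low there, with CG10232 at 425 to 502 CPM in wild type and 14.2, 285 and 306 CPM in the mutant, and Gba1a at 81.5 to 99.4 CPM and 1.24, 49.3 and 66.1 CPM. Both were also lower in mutant libraries 2 and 3 than in any wild-type library. CG4374 was high in mutant library 1 alone, at 131 CPM, against 3.13 to 7.41 CPM in the other 5 libraries.

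**Figure D4:**
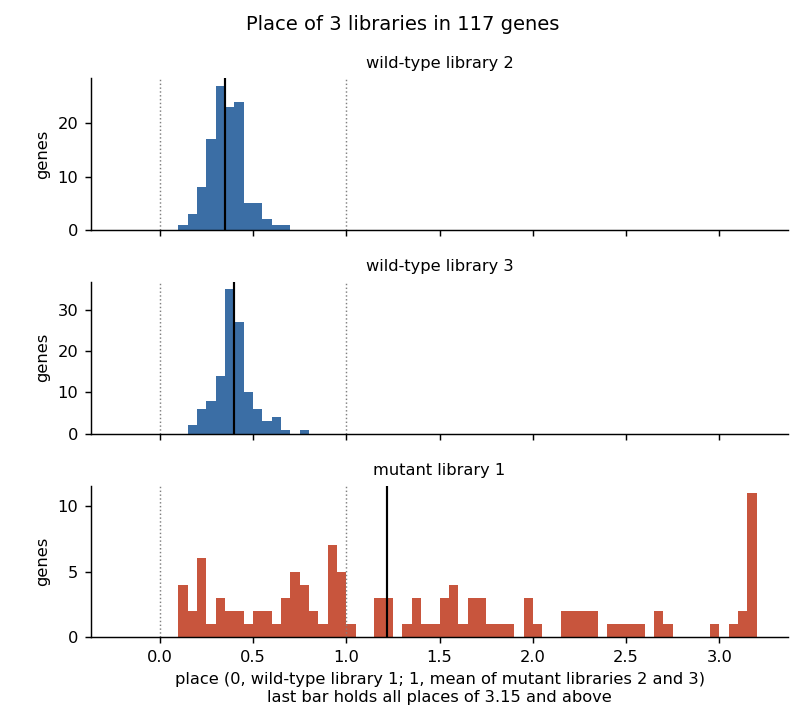
Number of genes by place for wild-type library 2, wild-type library 3 and mutant library 1, in 117 genes chosen from the other 3 libraries, where 0 (dotted) is the level of wild-type library 1, 1 (dotted) is the mean of mutant libraries 2 and 3, and the black line is the median. The 2 wild-type libraries form narrow peaks at 0.351 and 0.397, while mutant library 1 spreads from 0.106 to 7.39.

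Hemocyte genes, which S2 cells are known to express, went both ways, more of them upward. Of 18 tested members 7 were higher (38.9%) and 3 lower (16.7%) in every mutant library, where 17.5% and 18.4% of all genes were, and in libraries 2 and 3 limma called 11 as risen and 1 as fallen, where 9.34% and 5.42% of all genes were. The median log2 difference was 0.89 with all 6 libraries and 0.63 in libraries 2 and 3, where all genes had −0.02 and −0.01. A change in the number of cells of a type and a change in RNA per cell cannot be told apart in such bulk samples. Hml was at 216, 1335 and 1468 CPM in wild-type libraries 1 to 3 and at 3175, 3313 and 3536 CPM in mutant libraries 1 to 3, and the mutant libraries, number 1 included, differed little. Sr-CI, a scavenger receptor of hemocytes, was at 0.942, 39.7 and 49.5 CPM in wild type and 103, 145 and 130 CPM in the mutant. The engulfment receptors drpr and eater were also higher in every mutant library, although for them mutant library 1 was the highest of the mutant libraries, with drpr at 17.4 to 40.1 CPM in wild type and 74.8 to 113 CPM in the mutant, and eater at 80.1 to 154 and 242 to 345 CPM. All of these rose in libraries 2 and 3, by 2.44-fold, 3.03-fold, 2.10-fold and 1.65-fold for Hml, Sr-CI, drpr and eater. The marker srp, a GATA factor that specifies blood cells, was present in every library, at 330 to 385 CPM in wild type and 394 to 436 CPM in the mutant, whereas the phagocytosis receptor NimC1 was at 0 and He at 0.471 CPM in wild-type library 1 alone. Other markers were lower in every mutant library, with the scavenger receptor gene crq at 162 to 193 CPM in wild type and 57.6, 158 and 144 CPM in the mutant, and the matrix gene Tig at 2252 to 2361 CPM and 494, 2017 and 1972 CPM. Pxn, a matrix peroxidase gene, was at 199, 559 and 605 CPM in wild type and 329, 1258 and 1181 CPM in the mutant, so that mutant library 1 lay below wild-type libraries 2 and 3, as it did for NimC1.

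Matrix genes went both ways. Of 13 tested basement membrane genes 4 were higher (30.8%) and 3 lower (23.1%) in every mutant library, the latter near the 18.4% of all genes. In libraries 2 and 3, 7 rose and 2 fell, where 9.34% and 5.42% of all genes did. The collagen IV genes Col4a1 and vkg, which lie next to each other, were at 209, 1734 and 1816 CPM and at 147, 910 and 955 CPM in wild type. In the mutant they were at 3230, 4337 and 4033 CPM and at 1582, 2160 and 2010 CPM. Both moved in step through the 6 libraries and rose 2.35-fold and 2.23-fold in libraries 2 and 3. Mmp2, a matrix metalloprotease gene, had 55.1 to 79.0 CPM in wild type and 149 to 246 CPM in the mutant. LanB1, a laminin chain gene, was instead lower, at 3314 to 3540 CPM in wild type and 445, 2886 and 2852 CPM in the mutant, and so was the main beta integrin gene mys, at 1152 to 1297 CPM and 238, 959 and 942 CPM. For both the low value belonged to mutant library 1, and the falls in libraries 2 and 3 were small, at log2 differences of −0.26 and −0.30 (limma adjusted p = 0.00943 and 0.00216).

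Heat-shock genes had the highest median of the lists with all 6 libraries, and its size depended on the libraries numbered 1. Of 16 tested members 12 were higher in every mutant library and none was lower, with a median log2 difference of 1.91, and in libraries 2 and 3 limma called 9 as risen and 0 as fallen. The median was 4.05 between the libraries numbered 1 and 0.58 in libraries 2 and 3, and 0.78 without mutant library 1. The summed level of the list was 3565 to 3939 CPM in wild type and 10605, 4350 and 4400 CPM in the mutant. Hsp23, a small heat-shock chaperone, was at 5.65, 25.9 and 25.1 CPM in wild type and at 314, 52.5 and 67.4 CPM in the mutant. Mutant library 1 was thus the highest for this gene and wild-type library 1 the lowest, as for Hsp26, at 22.1 to 32.8 CPM in wild type and 264, 70.0 and 62.8 CPM in the mutant. The Hsp70 copies Hsp70Aa and Hsp70Ab were also highest in mutant library 1, at 1113 and 1083 CPM, but these genes are nearly identical and their counts are uncertain. The member counts of the list are therefore not all of separate genes.

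Signalling genes went both ways. Of 17 JNK and apoptosis genes 5 were higher (29.4%) and 4 lower (23.5%) in every mutant library, where 17.5% and 18.4% of all genes were. In libraries 2 and 3, 3 of them rose and 1 fell, where 9.34% and 5.42% of all genes did. Besides hid, the genes puc and Debcl rose there. The phosphatase gene puc, which limits JNK signalling, was at 142, 193 and 236 CPM in wild type and 301, 343 and 339 CPM in the mutant. Debcl, a Bcl-2 family gene, was at 9.89 to 24.9 and 43.9 to 46.6 CPM. The ligand gene egr, the fly TNF, was lower in every mutant library, at 310 to 347 CPM in wild type and 53.2, 257 and 256 CPM in the mutant. In the JAK/STAT pathway, whose cytokines signal through the receptor Dome and the kinase Hop, 4 of 10 genes were higher (40.0%) and 1 was lower (10.0%) in every mutant library. et, a receptor relative that limits the pathway, was at 2.36, 8.99 and 16.3 CPM in wild type and 46.4, 43.0 and 35.0 CPM in the mutant, and rose 2.99-fold in libraries 2 and 3. The feedback inhibitors Socs36E and Socs44A went opposite ways, with Socs36E at 66.4 to 79.6 CPM in wild type and 87.4 to 199 CPM in the mutant, and Socs44A at 18.4 to 24.9 and 11.1 to 14.3 CPM. Neither passed limma's test in libraries 2 and 3.

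Of 10 ecdysone response genes, 6 were higher (60.0%) and 1 was lower (10.0%) in every mutant library, against 17.5% and 18.4% of all genes. In libraries 2 and 3, 4 of these genes rose and 1 fell, where 9.34% and 5.42% of all genes did. The median log2 difference of the list was 0.36 with all 6 libraries and 0.20 in libraries 2 and 3. The nuclear receptor gene Eip78C was at 17.0, 25.9 and 30.7 CPM in wild type and 106, 46.7 and 53.8 CPM in the mutant, and the nuclear receptor genes Eip75B and ftz-f1 had narrower separations, at 192 to 240 and 182 to 204 CPM in wild type and 277 to 403 and 239 to 253 CPM in the mutant. Among 17 immunity genes 4 were higher (23.5%) and 2 lower (11.8%) in every mutant library, shares not far from those of all genes. Tl, the receptor of the Toll pathway, was at 39.6, 69.3 and 74.0 CPM in wild type and 124, 129 and 138 CPM in the mutant. Its NF-kappaB factors Dif and dl were also higher, at 33.9 to 43.4 and 50.4 to 69.8 CPM in wild type and 59.6 to 85.4 and 80.1 to 95.3 CPM in the mutant. All 3 rose in libraries 2 and 3, with log2 differences of 0.89 for Tl, 0.59 for Dif and 0.46 for dl. Tep2, which encodes a thioester protein that marks microbes for uptake, was lower, with 27.2 CPM in mutant library 1 and 284 to 366 CPM in the other 5.

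Small RNA pathway genes included several that were higher in the mutant. del, AGO3 and aub belong to the piRNA pathway, which silences transposons mainly in the germ line, and del was at 0.942, 21.7 and 26.3 CPM in wild type and at 110, 64.7 and 62.8 CPM in the mutant. The Piwi-family genes AGO3 and aub were at 85.3 to 221 and 3.30 to 12.5 CPM in wild type and at 394 to 454 and 22.9 to 27.0 CPM in the mutant. These 3 genes rose in libraries 2 and 3, by 2.59-fold for del, 1.83-fold for AGO3 and 2.55-fold for aub. Of the 21 tested members 6 were higher (28.6%, against 17.5% of all genes) and 4 lower (19.0%, near the 18.4% of all genes) in every mutant library, blanks among the latter. In the antioxidant and detoxification list 5 of 16 were higher (31.3%) and 6 lower (37.5%). The transcription factor gene cnc, the fly Nrf2, was at 122 to 177 CPM in wild type and 255 to 289 CPM in the mutant, while catalase (Cat) was at 207 to 259 CPM and 50.7, 172 and 150 CPM. GstD1, a glutathione transferase gene often used to report cnc activity, was lower in every mutant library, at 136 to 159 CPM in wild type and 12.4, 115 and 101 CPM in the mutant.

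Marker lists of other cell types were higher in the mutant in some members. Of 13 tested neuronal genes 8 were higher (61.5%) and 1 was lower (7.69%) in every mutant library, against 17.5% and 18.4% of all genes. The median log2 difference of the list was 1.41, and was 3.03 between the libraries numbered 1 and 0.40 in libraries 2 and 3. The summed level of the list was 1446 to 1670 CPM in wild type and 2787, 2046 and 2076 CPM in mutant libraries 1 to 3. Dscam1 made up a large part of this sum, at 683 to 867 CPM in wild type and 1506, 1111 and 1111 CPM in the mutant. The pan-neuronal gene elav was at 0 in all 6 libraries, and the synaptic gene nSyb was at 0 to 1.88 CPM in wild type and at 8.05, 1.59 and 0.648 CPM in the mutant. The markers brp and Syt1 overlapped between genotypes and were highest in mutant library 1. brp was at 38.2 to 53.7 CPM in wild type and 130, 48.3 and 43.4 CPM in the mutant, and Syt1 at 0.471 to 5.01 CPM and 39.6, 4.77 and 6.48 CPM. The calcium channel gene cac rose in libraries 2 and 3, from 19.0 and 21.3 to 69.5 and 60.2 CPM, and was at 0.471 and 46.4 CPM in wild-type and mutant library 1. CadN, a neural cadherin gene, was instead highest in mutant library 1, at 153 CPM, against 10.6 to 16.3 CPM in wild type and 23.9 and 25.9 CPM in mutant libraries 2 and 3. The part of such cells in the other results was not tested.

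Of 5 tested muscle genes 3 were higher and 1 was lower in every mutant library, with bt, a projectin gene, at 8.95 to 27.5 CPM in wild type and 53.1 to 73.0 CPM in the mutant, and the muscle factor gene Mef2 at 78.7 to 112 and 148 to 166 CPM. The titin gene sls was lower, at 986 to 1107 and 431 to 913 CPM, the muscle actin gene Act57B did not exceed 3.09 CPM, and the summed level of the list overlapped between genotypes, at 1420 to 1457 and 1054 to 1508 CPM. The fat body genes Lsp1alpha, Lsp2 and Fbp1 reached at most 4.33 CPM, and that in mutant library 1. Lsp1gamma, also on the fat body list, was instead higher in every mutant library and rose 2.41-fold in libraries 2 and 3. It was at 0.471, 11.1 and 13.2 CPM in wild type and at 32.2, 31.3 and 30.4 CPM in the mutant. Fat body genes, of which 3 of 11 matched members were tested, summed to 307 to 597 CPM in wild type and 392 to 1104 CPM in the mutant. Most of that sum was the single gene Apoltp, at 300, 513 and 577 CPM in wild type and 321, 1068 and 1029 CPM in the mutant. Gonadal genes summed to 38.6 to 67.7 CPM in wild type and 108 to 147 CPM in the mutant. The differentiation gene bam was at 0.471, 10.1 and 6.89 CPM in wild type and 21.0, 19.1 and 18.8 CPM in the mutant. Of 20 epithelial genes 5 were higher and 5 lower in every mutant library, 25.0% each way, not far from the 17.5% and 18.4% of all genes. Besides sdt its partner crb was high, at 7.54 to 29.5 CPM in wild type and at 171, 61.5 and 60.2 CPM in the mutant, while the adhesion gene Fas3 was high in mutant library 1 alone, at 143 CPM against 5.64 to 9.02 CPM in the other 5.

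Several lists, among them the proteasome, mitosis and DNA replication, had a negative median log2 difference with all 6 libraries. In the proteasome, 22 of 31 tested subunits were lower and 0 were higher in every mutant library, where 18.4% of all genes were lower. The median log2 difference was −0.59 with all 6 libraries, −1.44 between the libraries numbered 1 and −0.24 in libraries 2 and 3. In libraries 2 and 3, 7 of the 31 fell and 0 rose, where 5.42% and 9.34% of all genes did. The summed level was 2644 to 2793 CPM in wild type and 1108, 2278 and 2217 CPM in mutant libraries 1 to 3. Rpt2, an ATPase subunit, was at 95.2, 91.5 and 90.2 CPM in wild type and 30.3, 62.0 and 69.3 CPM in the mutant, and Prosalpha6, a core particle subunit, was at 114, 105 and 112 CPM and 19.2, 79.0 and 80.3 CPM. The wild-type libraries lay close together in these genes and in the summed level, number 1 included, while mutant library 1 was the lowest.

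Mitosis genes were lower in every mutant library in 21 of 38 members (55.3%) and higher in 2 (5.26%). Replication genes were lower in 15 of 32 (46.9%) and higher in 0. Over all tested genes 18.4% were lower and 17.5% higher. In libraries 2 and 3 limma called 7 mitosis genes as fallen and none as risen, where 5.42% and 9.34% of all genes were. It called 1 of 32 replication genes, RnrL, as fallen, a share not above that of all genes, and none as risen. The kinesin gene ncd was at 355, 365 and 341 CPM in wild type and 147, 259 and 263 CPM in the mutant, and aurB, the Aurora B kinase gene, was at 42.0 to 47.6 CPM and 8.66, 33.9 and 32.4 CPM. RnrL, the large subunit of ribonucleotide reductase, was at 161 to 173 CPM and 39.6, 127 and 131 CPM, and PCNA, the sliding clamp of DNA polymerase, at 136 to 151 CPM and 53.2, 109 and 119 CPM. In all 4 genes mutant library 1 was the lowest of the 6 and the wild-type libraries lay close together. The condensin genes barr and Cap-D2 had the same order, with barr at 60.2 to 68.8 CPM in wild type and 14.9, 35.5 and 46.6 CPM in the mutant, whereas wapl, which releases cohesin from DNA, was higher, at 79.0 to 92.1 and 105 to 259 CPM. Of 114 tested replication-dependent histone genes 28 were lower (24.6%, against 18.4% of all genes) and 0 higher in every mutant library, and in libraries 2 and 3 limma called 6 of 115 as fallen, where 5.42% of all genes fell, but these repeated genes share reads and their counts are uncertain.

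Genes of mitochondrial function were considered separately for the nuclear and the mitochondrial genome. Of 60 nuclear genes of oxidative phosphorylation 19 were lower (31.7%, against 18.4% of all genes) and 0 higher in every mutant library. Their median log2 difference was −0.40 with all 6 libraries, −0.99 between the libraries numbered 1 and −0.16 in libraries 2 and 3. In libraries 2 and 3, 4 of 61 fell and 1 rose, where 5.42% and 9.34% of all genes did. Of 64 mitochondrial ribosomal protein genes 13 were lower (20.3%, near the 18.4% of all genes) and 0 higher. Here 3 of 67 fell and 0 rose in libraries 2 and 3, against 5.42% and 9.34% of all genes. Cyt-c1, a subunit of complex III, was at 91.4, 96.8 and 99.0 CPM in wild type and 21.7, 61.5 and 69.9 CPM in the mutant. Of 12 tested genes of the mitochondrial genome 3 were higher (25.0%, against 17.5% of all genes) and 0 lower in every mutant library. With TMM-scaled CPM these counts were 6 and 0, and 9 genes rose in libraries 2 and 3, where 9.34% of all genes did. Their summed level was 16610, 25061 and 21607 CPM in wild type and 40859, 36090 and 33242 CPM in mutant libraries 1 to 3, so all mutant libraries were above all wild-type libraries. The large ribosomal RNA mt:lrRNA was at 4943, 8325 and 8172 CPM in wild type and 19743, 14340 and 13470 CPM in the mutant, and the oxidase subunit genes mt:CoI and mt:CoIII rose 1.43-fold each in libraries 2 and 3. The labels describe 2 library preparations, of which 1 was done without poly-A selection, and do not tie them to samples, so the part of the preparation in these levels cannot be told apart from the genotype.

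Glycolysis genes were lower in every mutant library in 6 of 12 members and higher in 0, and 5 fell in libraries 2 and 3. Pfk, the committed step of the pathway, was at 91.9, 96.3 and 80.2 CPM in wild type and 55.7, 49.3 and 60.9 CPM in the mutant, and mutant library 1 lay between the other mutant libraries. Eno, the enolase gene, was at 467 to 554 CPM and 261, 378 and 372 CPM. Of 9 purine synthesis genes 6 were lower (66.7%, against 18.4% of all genes) and 1, Adss, was higher (11.1%) in every mutant library. Among the lower ones only Gart and awd, a nucleoside diphosphate kinase gene, passed limma's test in libraries 2 and 3. Cytosolic ribosomal protein genes depended on the libraries used. With all 6 their median log2 difference was 0.10. Of 75 genes 12 were lower (16.0%, near the 18.4% of all genes) and 3 higher (4.0%) in every mutant library, or 7 and 2 with TMM-scaled CPM. In libraries 2 and 3 the median was −0.13, with 18 fallen and 1 risen, where 5.42% and 9.34% of all genes were. The summed level of these genes was 60942 to 63576 CPM in wild type and 81579, 57858 and 56042 CPM in the mutant. Mutant library 1 was thus above, and the other mutant libraries were below, all wild-type libraries.

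Actin cytoskeleton genes were lower in every mutant library in 18 of 27 members (66.7%) and higher in 2 (7.41%), against 18.4% and 17.5% of all genes. In libraries 2 and 3, 8 of them fell and 2 rose, where 5.42% and 9.34% of all genes did. Act5C, the main cytoplasmic actin, was at 5235, 4833 and 4957 CPM in wild type and 1521, 3760 and 3613 CPM in the mutant. Both members that were higher are regulators and linkers of actin: shot, a spectraplakin gene that joins actin to microtubules, was at 538, 971 and 975 CPM in wild type and 2647, 1766 and 1685 CPM in the mutant, and ena, which extends actin filaments, was at 214 to 274 and 327 to 350 CPM. Of 19 Polycomb group genes 3 were higher (15.8%, near the 17.5% of all genes) and 1, pho, was lower in every mutant library, and pho, which encodes a protein that recruits Polycomb complexes to DNA, was at 122 to 133 CPM in wild type and 21.0, 90.7 and 111 CPM in the mutant. Of 21 pausing and elongation genes 2 were higher (9.52%) and 4 lower (19.0%, near the 18.4% of all genes), or 2 and 2 with TMM-scaled CPM, and 1, dre4, a subunit of the histone chaperone FACT, fell in libraries 2 and 3, with 235 to 238 CPM in wild type and 175 to 188 CPM in the mutant. In dosage compensation, which raises expression of the male X chromosome, roX2 was at 202, 168 and 170 CPM in wild type and at 33.4, 179 and 190 CPM in the mutant, so that mutant library 1 alone was low. The male-specific msl-2 overlapped between genotypes, at 49.5 to 58.2 and 42.4 to 54.5 CPM, and X-linked genes had a median log2 difference of 0.03.

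**Figure D5:**
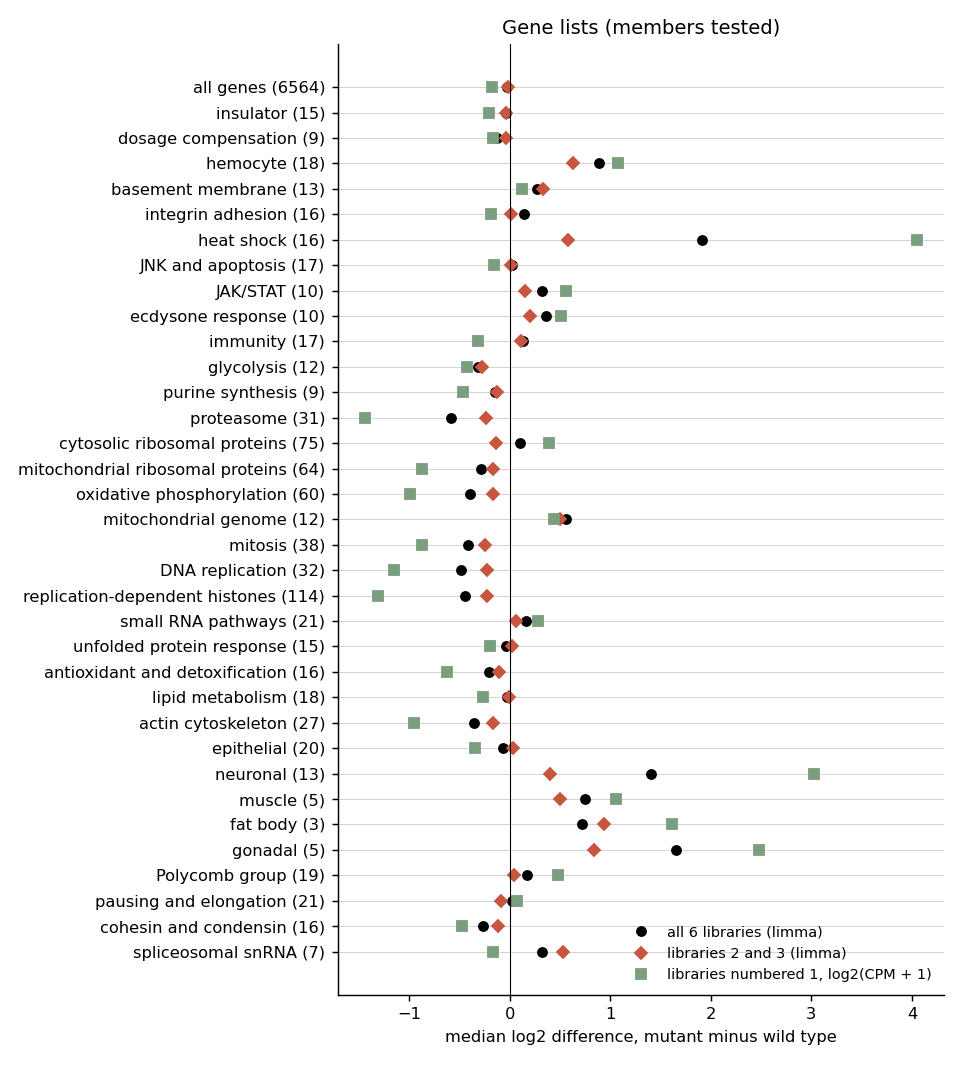
Median log2 difference of mutant minus wild type over the tested members of each gene list (numbers in brackets), from limma with all 6 libraries, from limma with libraries 2 and 3, and between the libraries numbered 1 on log2(CPM + 1). For most lists that lie away from 0, such as heat shock at 4.05, 1.91 and 0.58 and the proteasome at −1.44, −0.59 and −0.24, the libraries numbered 1 lie farthest from 0 and libraries 2 and 3 nearest.

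Protein-coding genes were also grouped by whether another gene starts within 500 bases on the opposite strand, pointing away, which is the arrangement BEAF-32 is known to lie in. Of 2477 tested genes with such a head-to-head neighbour 250 (10.1%) were higher and 513 (20.7%) lower in every mutant library, with a median log2 difference of −0.11. Of 3599 without one 779 (21.6%) were higher and 615 (17.1%) lower, with a median of 0.03. In libraries 2 and 3, 85 genes with a neighbour rose (3.41%) and 122 fell (4.89%), against 454 (12.5%) and 200 (5.50%) without. The share that rose was thus smaller among genes with a head-to-head neighbour and the shares that fell were near each other, which is a description with no test of the difference. The median level was 28.4 CPM with a neighbour and 38.3 CPM without. Among 995 pairs with both genes tested, both were higher in every mutant library in 16, both were lower in 54, and the genes went opposite ways in 36. The numbers that unrelated pairs would give were not worked out, so these counts do not show whether neighbours moved together.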

How the data were processed

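RNA-seq values per gene were analysed for 3 wild-type and 3 mutant libraries. The submitters' processing notes list CASAVA 1.8, BWA and HTSeq. Build, annotation and strand setting are not given in the sources used, so counts of overlapping genes and of near-identical copies are uncertain. The deposited mutant columns are raw read counts per gene, judged from their whole numbers. The deposited wild-type columns are treated as a signal: in libraries 1 and 2 the values, not the labels, show counts that were multiplied by a single factor and then rounded. Division by 1.234 and 1.237 gave whole reads for 99.989% and 100% of the positive values of wild-type libraries 1 and 2, where 81.0% and 80.8% would be whole by chance. For wild-type library 3 no factor was found in the limited range searched, and it was used as deposited, with its values counted as reads. Its column total, unassigned rows included, was 32297763, against 32297309 in mutant library 3. The other same-numbered libraries had totals as close to each other, so wild-type library 3 may also have been rescaled.

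Because rescaled values are not counts, the main test was limma-trend (limma 3.58.1, R 4.3.3) on log2 CPM with TMM factors, a prior count of 2 and edgeR's filterByExpr, two-sided, with Benjamini-Hochberg adjustment at 0.05 over all tested genes. As alternatives, recovered reads were tested with edgeR 4.0.16, DESeq2 1.42.0 and limma-voom. The scripts were tested on simulated data. The 5 rows of unassigned reads in each of 3 tables stayed out of sums and tests, and 2 columns of another experiment were not used. Summaries used Python 3.11.15, pandas 2.3.3 and numpy 2.4.6. Levels are CPM without TMM, and non-overlap of the groups was counted on them. No pair of libraries of a genotype agreed within sampling noise, with a chi-square per degree of freedom of at least 2.19. Of 15438 genes, 14606 (94.6%) matched a symbol in the BDGP6.54 annotation, which also gave head-to-head neighbours and need not be that of the authors. The samples, the 34 gene lists (981 genes matched, 40 symbols not matched), the tests and the choice of libraries 2 and 3 were made with earlier results of these data known.

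Genes were named by a rule over tested genes with a mean of at least 10 CPM: the 12 with the widest gap between the nearest libraries of the genotypes in each direction, the 5 that set each library numbered 1 most apart, up to 4 members of each list by gap and then by size, and BEAF-32, CTCF, Cp190, Dref, roX1, roX2 and msl-2. Cell type markers were named besides, and 2 genes that the rule names are not reported here. Column names carry no replicate number, so numbers name the table a library came from. The deviations of same-numbered libraries from their group means had correlations of −0.15, −0.12 and −0.08. With 3 libraries per genotype these values depend on each other, so they cannot show whether same-numbered libraries are pairs. The main test did not treat them as pairs, and results with a replicate block are given below.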

Additional observations from a re-analysis of the deposited data

Results flagged for a closer look

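Reads that were not aligned were a larger share in every mutant than in every wild-type library, at 10.4%, 7.62% and 7.61% in mutant libraries 1 to 3 against 0.790%, 3.32% and 3.55% in wild-type libraries 1 to 3. These reads lie outside the values per gene.

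Mutant library 1 had at least 1 read in 1183 of the 4055 genes that were at 0 in the 5 other libraries, and at least 3 reads in 493 of them. These genes held 0.210% of its gene values. The same count was 23, 30 and 26 in wild-type libraries 1 to 3 and 55 and 40 in mutant libraries 2 and 3.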

How the results depend on the processing

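With all 6 libraries, limma called 0 genes under each scaling, filter and prior count tried and when a replicate block by deposited table was added, and 0 to 471 when 1 library was left out, with 471 only without mutant library 1. DESeq2 called 220. In libraries 2 and 3 the 977 calls became 180 with DESeq2, 1230 (740 higher) with the replicate block, 660 to 905 without 1 library, and 845 to 1064 under the others. Genes higher in every mutant library numbered 1150, 2031 without a filter, 1833 in libraries 2 and 3 alone and 1252 to 1627 without 1 library. Genes lower in every mutant library numbered 1211 and 1171 to 1762 under the alternatives. The 568 genes that rose and were higher in mutant than in wild-type library 1 became 374 to 538 without 1 library. Median places of wild-type libraries 2 and 3 were 0.343 to 0.365 and 0.387 to 0.414.

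Of 154 named genes 3 changed sign, none of them called. Without 1 library Cp190 ranged from −0.052 to 1.11 and was −0.060 in libraries 2 and 3, roX2 (lncRNA:roX2) from −1.11 to 0.014 and was 0.12 there and msl-2 from −0.30 to 0.021. Of 306 list medians 15 moved beyond the spread. Without mutant library 1 these included 0.78 for heat shock, −0.16 for cytosolic ribosomal proteins and 0.57 for neuronal genes. Plain CPM shifted the median of all genes from −0.02 to −0.08 and turned the sign of the JNK and the pausing medians, from 0.02 and 0.03 to −0.03 each. The cause of these changes was not tested beyond the libraries left out.

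The planned grouping of promoters by CGATA motif was not run, since no promoter sequence was used here. With about 1528041 to 1885689 gene reads per library, genes under about 10 CPM rest on few reads, which limits the differences detectable there.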

Other observations

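Chromosome 4, a small chromosome largely packed as heterochromatin, was lower in mutant library 1 than in the other mutant libraries. Of 67 tested genes on it 22 (32.8%) were lower and 10 (14.9%) higher in every mutant library, where 18.4% and 17.5% of all genes were, with a median log2 difference of −0.42. That median was −1.28 between the libraries numbered 1 and −0.08 in libraries 2 and 3, where 12 of 67 genes rose and 5 fell and 9.34% and 5.42% of all genes did. Against mutant libraries 2 and 3, mutant library 1 was lower by a median log2 difference of −1.33 on chromosome 4 and −0.23 over all tested genes, whereas wild-type library 1 differed from the other wild-type libraries by 0.00079 there. The other arms had medians of −0.14 to 0.03 with all 6 libraries.

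Small noncoding RNA genes were few among those tested. All 5 tested snoRNA genes rose in libraries 2 and 3, where 9.34% of all genes did. Of these 5 genes, 4 were higher in every mutant library, where 17.5% of all genes were, and their median log2 difference was 1.21. Among 7 tested snRNA genes 4 rose and 1 fell in libraries 2 and 3, where 9.34% and 5.42% of all genes did. snRNA:U2:34ABa, a copy of the U2 spliceosomal RNA, was at 419, 648 and 845 CPM in wild-type libraries 1 to 3 and at 721, 1031 and 1471 CPM in mutant libraries 1 to 3, and the groups overlapped. The U2 copies share sequence, so their counts are uncertain. Of 424 tested genes without a symbol in the annotation 106 (25.0%) were higher and 76 (17.9%) lower in every mutant library, the latter near the 18.4% of all genes.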
